A study of Mus musculus with 16 samples.

Results

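The nuclear-encoded subunits of oxidative phosphorylation were followed across 3 sets of mouse embryonic stem (ES) cell RNA-seq libraries. They were chosen by symbol alone, as the Nduf a, b, c, s and v series, the Sdh, Uqcr and Atp5 genes and the numbered Cox genes of complex IV, without Ndufa4l2 and without names marked as pseudogenes. This gave 83 genes of the 24345 names that all 3 tables share. Complex I held 36 of them, complex II 4, complex III 8, complex IV 18 and complex V 17. Ndufa4 was counted with complex I by its symbol, although its protein is now placed in complex IV, and Atp5s and Atp5sl were counted with complex V although neither is a classical subunit.

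Oxidative phosphorylation passes electrons through complexes I to IV of the inner mitochondrial membrane, of which I, III and IV pump protons, and complex V, the ATP synthase, uses the proton gradient to make ATP. Complexes I, III, IV and V combine subunits encoded in the nucleus with a few encoded in mitochondrial DNA, whereas complex II is encoded in the nucleus alone and is also an enzyme of the citric acid cycle. Mouse ES cells respire but draw much of their ATP from glycolysis.

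The 16 libraries fell into 8 groups of 2, and every label gives the ES cell line E14Tg2a.IV, strain C57BL/6 and feeder-free culture in serum with LIF. The growth protocol also names a second line, CCE, and neither the line nor the strain of each library was checked beyond the label. The first set compared untreated Pml KO cells with untreated WT cells; Pml encodes the protein that scaffolds PML nuclear bodies. The second compared WT cells given sodium arsenite at 200 µM for 2 h, an oxidative stress, with untreated WT cells. The third held cells labelled Trim33 KO or WT (Trim33 encodes a chromatin reader that takes part in SMAD signalling), each given activin A at 50 ng/ml, a ligand that activates SMAD signalling, or SB431542 at 10 µM, an inhibitor of the activin receptors, for 2 h. How the knockouts were made, and whether each is 1 clone, was not given in the sources used here. Nothing states that the replicates came from separate cultures, so each p-value measures only the spread between these libraries.

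The targeted genes were checked first. Pml read 32.0 and 33.5 FPKM (fragments scaled for transcript length and library total) in Pml KO cells, against 49.9 and 45.1 FPKM in WT cells, so the transcript was reduced but still present and the name Pml KO rests on the label. Trim33 read 2.53 and 2.79 in the libraries labelled Trim33 KO with activin A, against 20.1 and 23.5 in those labelled WT with activin A. With SB431542 it went against the genotype label, at 18.3 and 24.6 in the libraries labelled Trim33 KO and 2.94 and 2.44 in those labelled WT. Eif2s3y, a Y-linked gene, split the same way, with at most 0.143 in the 4 libraries low in Trim33 and at least 38.3 in the other 4, and it was also low in Pml KO cells (1.102 and 0.7527 FPKM, against 16.2 and 20.6 FPKM in WT cells). All SB431542 groups are therefore called by their labels only.

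Every library expressed the core of the system. In the 4 libraries of the Pml table, 61 of the 83 members averaged at least 100 FPKM, with Cox7c (1577 FPKM) and Atp5b (1418 FPKM) at the top. In the arsenite libraries with their controls, 35 members averaged at least 100 RPKM (reads scaled for gene length and library total), led by Atp5b at 1147 RPKM and Cox4i1 at 668 RPKM, and 48 averaged at least 100 in the Trim33 table. The 3 tables were normalised separately and their levels were not compared. Of the 7 tissue-restricted complex IV isoforms 5 stood at or near the bottom in each table: Cox8b, a muscle isoform, was listed at 0 in all 16 libraries, and Cox6a2, Cox7b2, Cox8c and Cox4i2 averaged at most 1.70 in any table. The other 2, Cox6b2 and Cox7a1, averaged 41.6 and 39.3 FPKM in the Pml table, 28.5 and 11.3 RPKM in the arsenite table and 25.9 and 11.7 in the Trim33 table. Ndufs5 was listed at 0 in all 12 libraries of the RPKM-type tables and at most at 0.000239 FPKM in 3 libraries of the Pml table, against 6.28 FPKM in the other WT library. Since Ndufs5 belongs to complex I in every cell, these entries may be failed estimates and were not read as absence.

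In each comparison 79 of the 83 members reached a value of 1 in 2 or more libraries and were tested. Ndufs5 and Cox8b were left out throughout. Of the low complex IV isoforms, Cox8c was tested in the Pml table alone, Cox6a2 in the arsenite table alone and Cox7b2 in the Trim33 table alone. Where strand is not used in counting, reads of overlapping genes cannot be told apart. Among the members described, Cox5a shares 269 exonic bases with Gm26631, Atp5o 346 with D430001F17Rik and 356 with Gm15976, Atp5f1 337 with Wdr77 and Ndufs1 489 with Ino80dos, each on the opposite strand. On its own strand Atp5o shares 243 exonic bases with a second Atp5o entry, and Ndufb8 shares 134 with the protein-coding gene Gm20538. Use of strand would not separate these reads.

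Nuclear genes of this system are known to share promoter elements, among them sites for NRF1, for the ETS factor GABP and for YY1. The windows below, RefSeq promoter sequence on GRCm38.p6 with 250 bases before and 50 after the transcription start, belong to members on which the results turn: Atp5k (chr5:108434350-108434649, minus strand) and Atp5e (chr2:174464052-174464351, minus strand), which fell most in arsenite-treated cells among the called members of complex V; Atp5l (chr9:44920693-44920992, minus strand) and Uqcrc1 (chr9:108936398-108936697, plus strand), which rose there; and Ndufa9 (chr6:126849095-126849394, minus strand), called in the Trim33 table. Each reads 5′ to 3′ in the direction of the gene. Capitals mark the letters CGCATGCG (an NRF1 core), CCGGAAG (an ETS core) or AAGATGGC (a YY1 core), searched on both strands, so that CTTCCGG is the ETS core on the other strand.
Atp5k: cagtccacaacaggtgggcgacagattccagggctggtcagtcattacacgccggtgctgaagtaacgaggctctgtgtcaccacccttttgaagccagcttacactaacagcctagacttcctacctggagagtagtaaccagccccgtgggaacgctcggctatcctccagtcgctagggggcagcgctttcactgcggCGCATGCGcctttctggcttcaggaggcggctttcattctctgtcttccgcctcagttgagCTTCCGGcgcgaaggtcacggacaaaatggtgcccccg
Atp5e: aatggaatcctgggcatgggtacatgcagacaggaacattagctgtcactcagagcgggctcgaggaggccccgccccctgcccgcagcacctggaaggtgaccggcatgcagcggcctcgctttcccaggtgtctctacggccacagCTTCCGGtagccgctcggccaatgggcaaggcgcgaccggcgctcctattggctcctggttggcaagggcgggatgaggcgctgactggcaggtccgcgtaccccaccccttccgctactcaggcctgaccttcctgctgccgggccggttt
Atp5l: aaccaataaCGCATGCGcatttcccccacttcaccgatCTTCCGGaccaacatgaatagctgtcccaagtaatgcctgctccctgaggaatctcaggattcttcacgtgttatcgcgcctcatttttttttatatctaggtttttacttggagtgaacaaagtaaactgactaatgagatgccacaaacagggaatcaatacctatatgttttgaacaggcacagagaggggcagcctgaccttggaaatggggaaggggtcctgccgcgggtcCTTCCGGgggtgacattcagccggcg
Uqcrc1: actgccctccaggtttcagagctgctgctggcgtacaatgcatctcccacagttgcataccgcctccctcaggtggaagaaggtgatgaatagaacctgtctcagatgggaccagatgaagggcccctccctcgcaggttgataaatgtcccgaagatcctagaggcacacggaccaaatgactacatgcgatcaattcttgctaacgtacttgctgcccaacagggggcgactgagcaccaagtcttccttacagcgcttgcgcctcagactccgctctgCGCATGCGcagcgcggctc
Ndufa9: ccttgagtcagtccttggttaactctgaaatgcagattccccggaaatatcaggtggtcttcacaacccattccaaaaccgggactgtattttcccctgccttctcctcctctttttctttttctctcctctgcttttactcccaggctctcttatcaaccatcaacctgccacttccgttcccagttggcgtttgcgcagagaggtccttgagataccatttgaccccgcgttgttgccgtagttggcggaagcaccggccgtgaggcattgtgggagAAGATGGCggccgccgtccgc

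Atp5k carried an NRF1 and an ETS core close to the start and fell, and Atp5l carried both kinds of core and rose, so the windows shown hold the same letters in members of opposite direction. Windows were found for 69 of the 83 members. The NRF1 letters stood in 13% of these 69 genes, against 2.07% of 27025 genes with a window. The ETS letters stood in 23.2%, against 9.93%, and the YY1 letters in 15.9%, against 3.19%. No window of a member held the ETS core running into the YY1 core with 3 letters shared. Other overlaps of these cores were not searched. Among members that fell in arsenite-treated cells 4 of 36 with a window held the NRF1 letters, 9 the ETS letters and 8 the YY1 letters, and among those that rose 2 of 11 held the NRF1 letters, 3 the ETS letters and 2 the YY1 letters. Among members that fell in Pml KO cells the NRF1 letters stood in 2 of 18, the ETS letters in 1 and the YY1 letters in 3. A match describes letters in a window and is not a bound site.

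**Figure D1:**
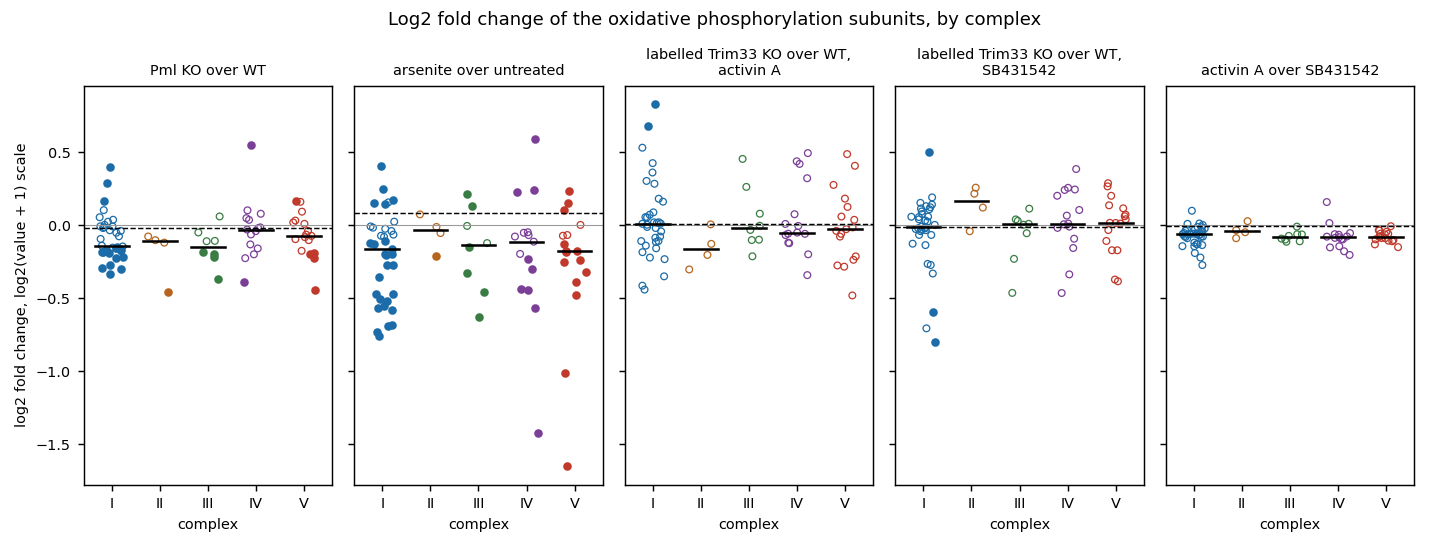
Log2 fold change of each tested member on the log2(value + 1) scale, grouped by complex I to V, in 5 comparisons; filled points passed an adjusted p of 0.05, open points did not, short bars are the complex medians and the dashed line is the median of all genes tested. Points lie mostly below the dashed line for Pml KO and for arsenite, where the member medians were -0.09 and -0.15, and no point is filled for activin A over SB431542.

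Arsenite gave the most calls among the members. Transcripts of 43 of the 79 members fell and 13 rose at an adjusted p under 0.05 (limma, two-sided), while 23 passed in neither direction. Over all 12136 genes tested, 67.7% were called, with 27% lower and 40.7% higher. The median member changed by -0.15 on the log2 scale, against 0.08 for all genes tested. Both arsenite-treated libraries lay below both untreated ones for 49 members and above them for 14, against 34.6% and 49.9% of all genes. Both splits move with the scaling. With TMM-type scaling 53 members were lower and 7 higher (67.1% and 8.86%, against 32.9% and 34.7% of all genes). With quantile scaling 36 were lower and 19 higher (45.6% and 24.1%, against 32.8% and 31.6% of all genes). Of all genes called under quantile scaling 49% were higher, in place of 60.1%. In these bulk samples fewer cells of a type and less RNA per cell cannot be told apart.

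The share of tested members that fell was 60% in complex I, 25% in complex II, 50% in complex III, 40% in complex IV and 64.7% in complex V, against 27% of all genes. In complex I 21 members fell and 5 rose of 35, in complex II 1 fell of 4, in complex III 4 fell and 2 rose of 8, in complex IV 6 fell and 3 rose of 15, and in complex V 11 fell and 3 rose of 17. The summed level of complex V was 3666 and 3530 RPKM in arsenite-treated cells, against 4192 and 4134 RPKM in untreated cells, and that of complex I was 2586 and 2429 RPKM, against 2859 and 2870 RPKM in untreated cells. The groups did not overlap for either sum. For complex II the sums lay closer, at 369 and 359 RPKM in arsenite-treated cells and 374 and 375 RPKM in untreated cells.

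Complex V held the 2 steepest falls of all members expressed well above the filter. Atp5k (chr5:108433244-108434448, GRCm38, minus strand), the small membrane subunit e that lies at the interface of ATP synthase dimers, read 47.7 and 47.5 RPKM in arsenite-treated cells, against 147 and 157 RPKM in untreated cells. It fell by 1.65 on the log2 scale (SE 0.0424, adjusted p = 2.29e-07). Atp5e (chr2:174461072-174464105, minus strand), the epsilon subunit of the F1 central stalk, read 81.4 and 79.4 RPKM in arsenite-treated cells, against 162 and 165 RPKM in untreated cells, which is -1.02 on the log2 scale (SE 0.0358, adjusted p = 7.72e-07). Both pairs of libraries lay far apart, with little spread within a pair. The arsenite-treated pair lay wholly below the untreated pair, as it did for 34.6% of all genes.

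The rest of complex V moved less and not in 1 direction. Among the 5 subunits of the F1 head, with Atp5e counted again, 4 were called lower, against 27% of all genes. Of these, the alpha and beta subunits Atp5a1 and Atp5b were at -0.18 and -0.13 on the log2 scale and at 0.08 and 0.17 under quantile scaling, and the Atp5b call was lost without either untreated library (adjusted p = 0.162 and 0.0912). Atp5d, the delta subunit, was called higher by 0.10, and lost the call when any 1 of the 4 libraries was left out (adjusted p = 0.0553 to 0.167). Of the 3 c-ring genes, which encode the same mature protein, Atp5g1 and Atp5g2 fell by 0.24 and 0.39 on the log2 scale, while Atp5g3 was at -0.07 and did not pass (adjusted p = 0.122). Atp5g2 shares 87.4% of its 50-base words with other genes or pseudogenes, so its reads may be split. Atp5j2, the membrane subunit f, fell to 196 and 183 RPKM in arsenite-treated cells, against 266 and 262 RPKM in untreated cells. Atp5l, the membrane subunit g, rose to 119 and 107 RPKM in arsenite-treated cells, against 95.5 and 96.6 RPKM in untreated cells, and shares 68.5% of its 50-base words, with 12 pseudogenes among the sources. Atp5f1, the peripheral stalk subunit b, was called higher by 0.15 and lost the call without arsenite replicate 1 (adjusted p = 0.0967) and without 1 untreated library (adjusted p = 0.0727).

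Most complex I falls were among the accessory subunits, which are also most of its members. Of the 27 accessory subunits tested 17 fell and 3 rose, with a median of -0.20 on the log2 scale. Of the 7 subunits of the catalytic core 4 fell and 1 rose, with a median of -0.11. The difference between these medians was not tested. Over all genes 27% fell and 40.7% rose. Ndufa13, an accessory subunit also known as the cell-death regulator GRIM-19, read 32.3 and 33.6 RPKM in arsenite-treated cells, against 56.8 and 56.2 RPKM in untreated cells, which is -0.76 on the log2 scale (SE 0.0416, adjusted p = 4.89e-06). Its exons share 375 bases with those of Tssk6 on the opposite strand, and the use of strand in counting was not given in the sources used here.

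Ndufa2, an accessory subunit of the matrix arm, read 69.6 and 63.8 RPKM in arsenite-treated cells, against 106 and 117 RPKM in untreated cells, and fell by 0.73 on the log2 scale (SE 0.0594, adjusted p = 3.28e-05). Ndufa1, a membrane-arm subunit encoded on the X chromosome, fell to 42.1 and 37.7 RPKM in arsenite-treated cells, against 68.2 and 62.0 RPKM in untreated cells. Ndufc1, another membrane-arm subunit, fell to 49.8 and 46.4 RPKM in arsenite-treated cells, against 76.7 and 79.3 RPKM in untreated cells. Both arsenite-treated libraries lay below both untreated ones for each of these 4 genes, which were named for their falls. The same held for 34.6% of all genes tested.

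Ndufa4 went the other way. It read 238 and 221 RPKM in arsenite-treated cells, against 176 and 170 RPKM in untreated cells, which is 0.41 on the log2 scale (SE 0.0445, adjusted p = 0.000146). Ndufb9, an accessory subunit of the membrane arm, rose to 140 RPKM in both arsenite-treated libraries, against 116 and 119 RPKM in untreated cells. An annotated protein-coding gene on the same strand, Gm49356, shares 201 exonic bases with Ndufb9. Of the core, Ndufv2, an iron-sulfur subunit, fell by 0.47, and this call held in all 9 alternatives. The lower calls of Ndufs1 and Ndufv1 (-0.16 and -0.13) and the higher call of Ndufs8 (0.15) did not: each was lost without arsenite replicate 2 (adjusted p = 0.113, 0.0785 and 0.083), that of Ndufv1 also without arsenite replicate 1 (0.053) or 1 untreated library (0.14), and that of Ndufs8 also without the other untreated library (0.1).

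Complex II held 1 call. Sdhb, the iron-sulfur subunit, read 81.1 and 80.6 RPKM in arsenite-treated cells, against 94.9 and 92.7 RPKM in untreated cells, and fell by 0.21 on the log2 scale (SE 0.0361, adjusted p = 0.0014). Sdha, the flavoprotein subunit, did not pass at 128 and 124 RPKM in arsenite-treated cells, against 119 and 121 RPKM in untreated cells (adjusted p = 0.113). The membrane anchors Sdhc and Sdhd had log2 fold changes of -0.01 and -0.05 and did not pass.

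In complex III 2 of the 3 core subunits were called higher and 4 of the 5 small subunits lower. Over all genes 40.7% were called higher and 27% lower, and the split by role was not tested. Uqcrc1, a core subunit, rose to 251 RPKM in both arsenite-treated libraries, against 217 and 215 RPKM in untreated cells (log2 fold change 0.21, SE 0.0341, adjusted p = 0.000982). Uqcrfs1, the Rieske iron-sulfur protein, was called higher by 0.13, and this call was lost without arsenite replicate 1 (adjusted p = 0.214) and without 1 untreated library (adjusted p = 0.239). Among the small subunits Uqcrq, which contacts cytochrome b, read 182 and 171 RPKM in arsenite-treated cells, against 277 and 270 RPKM in untreated cells, which is -0.63 on the log2 scale (SE 0.0413, adjusted p = 1.16e-05). Uqcr10 fell by 0.46 and Uqcrb by 0.33.

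Complex IV split by subunit and by isoform. Cox7b, a nuclear subunit encoded on the X chromosome, read 92.9 and 88.7 RPKM in arsenite-treated cells, against 135 and 134 RPKM in untreated cells (log2 fold change -0.57, SE 0.0386, adjusted p = 1.41e-05). Cox5b fell by 0.44 and Cox8a by 0.44, whereas Cox5a, another matrix-side subunit, rose to 273 and 274 RPKM in arsenite-treated cells, against 226 and 242 RPKM in untreated cells. Cox7a2 rose by 0.24, and its relatives Cox7a1 and Cox7a2l did not pass at -0.20 and -0.05. Cox4i1, the common form of subunit 4, did not pass at 668 and 645 RPKM in arsenite-treated cells, against 677 and 681 RPKM in untreated cells.

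Both called isoforms of complex IV with a restricted tissue range lay near the detection limit. Cox4i2, the form of subunit 4 induced in low oxygen, read 1.32 and 1.26 RPKM in arsenite-treated cells, against 0.397 and 0.661 RPKM in untreated cells. Cox6a2, the heart and muscle form of subunit 6a, read 0.0649 and 0.253 RPKM in arsenite-treated cells, against 2.13 and 2.06 RPKM in untreated cells. Their log2 fold changes of 0.59 and -1.42 are on the log2(value + 1) scale, which understates changes at such levels. Neither gene passed the filter on low values once 1 library of its higher group was left out. Cox6a1, the form used in most tissues, did not pass at -0.07, and neither did Cox6b1's tissue-restricted relative Cox6b2 at -0.08, while Cox6b1 fell by 0.23, a call lost with the length trend removed (adjusted p = 0.136).

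**Figure D2:**
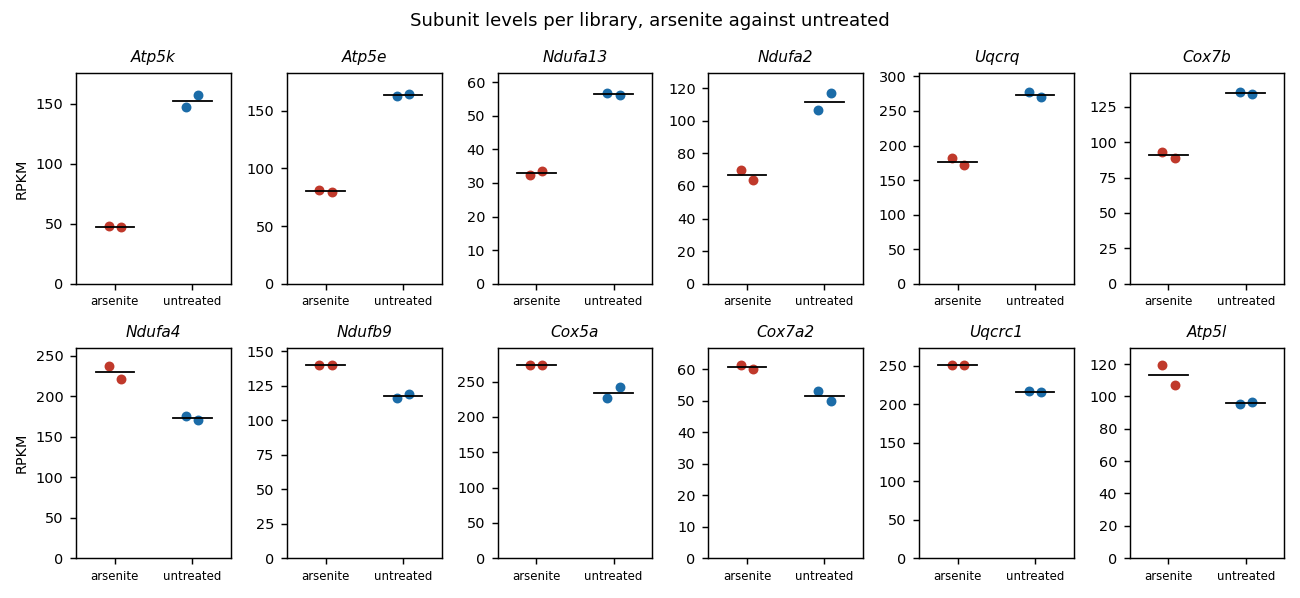
RPKM per library (points) and group mean (line) for 12 members, arsenite-treated at the left and untreated at the right of each panel, each axis starting at 0. Atp5k lies at 47.5 to 47.7 RPKM in arsenite-treated cells and at 147 to 157 RPKM in untreated cells, and the lower row shows 6 members that were higher in arsenite-treated cells.

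Most members have short transcripts, and short transcripts fell across the arsenite table. The principal transcript of a member had a median of 809 bases. Of all tested genes with a principal transcript under 500 bases the median log2 fold change was -0.29, and it was 0.14 at 2500 bases or more. In the class of 500 to 750 bases the median of the 29 members was -0.13, against -0.14 for all 267 genes of that class. Under 500 bases it was -0.57 for 6 members, against -0.29 for all 232 genes, and at 1500 to 2500 bases it was -0.13 for 14 members, against 0.05 for all 2804 genes. With the trend on transcript length removed, 39 members were lower and 14 higher (49.4% and 17.7%, against 34.3% and 32.2% of all genes). Without that removal 54.4% of members and 27% of all genes were lower. Atp5k remained at -1.43 and Atp5e at -0.79. The part of transcript length in the falls was otherwise not tested.

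**Figure D3:**
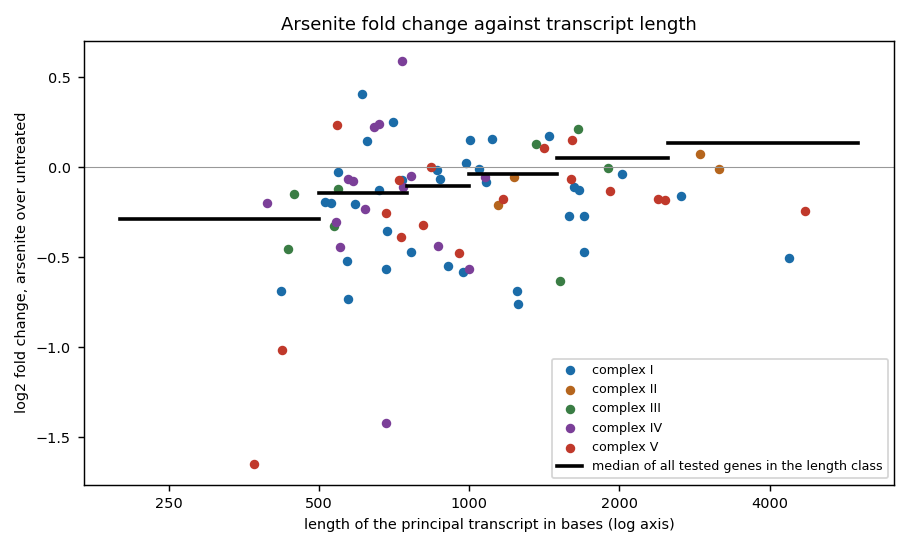
Log2 fold change of each tested member in arsenite-treated over untreated cells against the length of its principal transcript in bases (log axis), with black bars for the median of all tested genes in each length class. The bars climb with length, at -0.29 under 500 bases and 0.14 at 2500 bases or more, and Atp5k and Atp5e lie far below the bar of their class.

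In Pml KO cells fewer members were called. Of the 79 tested, 23 fell and 5 rose at an adjusted p under 0.05, and 51 passed in neither direction. Over all 11648 genes tested, 35.5% were called, with 18.9% lower and 16.6% higher, and of the members 29.1% were lower and 6.33% higher. The share of members lower moved to near that of all genes under other settings, at 19% against 15.1% with TMM-type scaling, 17.7% against 18.6% with quantile scaling and 19% against 16.4% with the length trend removed, while with no filter on low values it was 15.9% against 7.43%. The median member was at -0.09 on the log2 scale, against -0.02 for all genes. Both Pml KO libraries lay below both WT libraries for 41 members and above them for 9, against 38% and 31.4% of all genes. Without Pml KO replicate 2 the number lower was 12, or 15.2% against 15% of all genes, and the number higher 3, and without WT replicate 1 the number higher was 2. With the length trend removed 15 members were lower and 7 higher (19% and 8.86%, against 16.4% and 19.2% of all genes).

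By complex, 13 of 35 members of complex I fell and 3 rose, 1 of 4 in complex II fell and 4 of 8 in complex III fell. In complex IV 1 of 15 fell and 1 rose, and in complex V 4 of 17 fell and 1 rose. The shares that fell were 37.1%, 25%, 50%, 6.67% and 23.5% for complexes I to V, against 18.9% of all genes. The shares that rose were 8.57%, 0%, 0%, 6.67% and 5.88%, against 16.6% of all genes. Complex IV thus had 13 of 15 members that did not pass. The summed level of complex III was 2758 and 2656 FPKM in Pml KO cells, against 3049 and 3066 FPKM in WT cells, and that of complex II was 428 and 403 FPKM, against 472 and 474 FPKM in WT cells. For complex IV the sums overlapped, at 7035 and 6599 FPKM in Pml KO cells and 6691 and 7151 FPKM in WT cells.

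Sdhc (chr1:171127165-171150603, GRCm38, minus strand), a membrane anchor of complex II, had the largest fall by fold. It read 90.5 and 93.9 FPKM in Pml KO cells, against 132 and 121 FPKM in WT cells, which is -0.45 on the log2 scale (SE 0.0567, adjusted p = 0.000498). The other 3 subunits of complex II, Sdha, Sdhb and Sdhd, had log2 fold changes of -0.10, -0.12 and -0.08 and did not pass. Atp5g1 (chr11:96068852-96075670, minus strand), a c-ring gene, read 319 and 310 FPKM in Pml KO cells, against 424 and 433 FPKM in WT cells, which is -0.44 on the log2 scale (SE 0.0442, adjusted p = 0.000142). Of the other c-ring genes, Atp5g3 was called lower by 0.19 and lost the call without Pml KO replicate 2 (adjusted p = 0.215) or WT replicate 2 (adjusted p = 0.0653), and Atp5g2 did not pass at -0.07. Atp5o, the stalk subunit that confers oligomycin sensitivity, fell to 364 and 371 FPKM in Pml KO cells, against 437 and 421 FPKM in WT cells.

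In complex IV Cox5b fell to 403 and 357 FPKM in Pml KO cells, against 502 and 494 FPKM in WT cells (log2 fold change -0.39, SE 0.0605, adjusted p = 0.00158). Cox5b shares 25.9% of its 50-base words with the annotated gene Gm11273. In complex III Uqcrq fell to 577 and 522 FPKM in Pml KO cells, against 697 and 717 FPKM in WT cells, and Uqcr10 fell to 540 and 543 FPKM, against 630 and 629 FPKM in WT cells. Both Pml KO libraries lay below both WT libraries for each of these 3 genes, which were named for their falls. The same held for 38% of all genes tested.

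In complex I the falls that held in every alternative included the core subunit Ndufs8. Ndufs8, which carries iron-sulfur clusters, read 76.3 and 68.3 FPKM in Pml KO cells, against 93.2 and 89.9 FPKM in WT cells (log2 fold change -0.34, SE 0.0622, adjusted p = 0.00375). Ndufc2 fell by 0.30 and Ndufb8 by 0.22. Ndufa1 rose to 147 and 122 FPKM in Pml KO cells, against 95.1 and 108 FPKM in WT cells (log2 fold change 0.40, SE 0.0908, adjusted p = 0.01). With no filter on low values Ndufc2 and Ndufa1 did not pass (adjusted p = 0.0603 and 0.0986). Ndufa12 was called higher by 0.29, at 18.1 and 20.3 FPKM in Pml KO cells against 16.1 and 14.8 FPKM in WT cells, and lost the call without Pml KO replicate 2 (adjusted p = 0.137) or WT replicate 2 (adjusted p = 0.0694).

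Further rises were small or near the filter. Cox4i2 read 1.77 and 2.67 FPKM in Pml KO cells, against 1.16 and 1.19 FPKM in WT cells, and lost the call without Pml KO replicate 2 (adjusted p = 0.135) or WT replicate 1 (adjusted p = 0.0566). Atp5l was called higher by 0.16, a call lost without Pml KO replicate 1 (adjusted p = 0.186), Pml KO replicate 2 (0.0628) or WT replicate 1 (0.1). Of the 23 lower calls 9 held in all 10 alternatives, among them Atp5g1, Atp5o, Cox5b, Ndufb8, Ndufs8, Sdhc, Uqcr10 and Uqcrq. None of the 5 higher calls did.

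**Figure D4:**
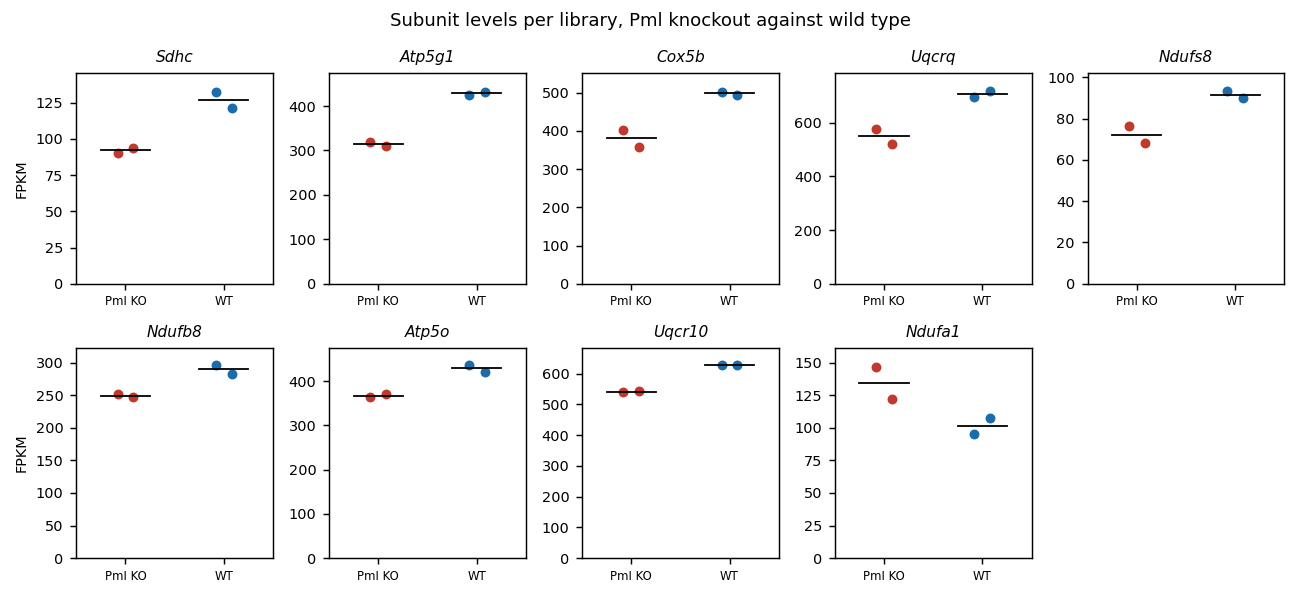
FPKM per library (points) and group mean (line) for 9 members, Pml KO at the left and WT at the right of each panel, each axis starting at 0. In the 8 members shown that were called lower in all alternatives both Pml KO libraries lie below both WT libraries, and for Ndufa1 both lie above. Of all genes tested 38% lay below and 31.4% above in this way.

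Markers of other cell types moved with the Pml genotype. All 7 trophectoderm markers tested of 8 listed were higher in Pml KO cells, where the list summed to 718 and 731 FPKM, against 71.3 and 65.8 FPKM in WT cells. Fibroblast or feeder markers summed to 535 and 565 FPKM in Pml KO cells, against 106 and 108 FPKM in WT cells, with 6 of 7 tested higher and 1 lower. ES cell markers summed to 7682 and 7444 FPKM, against 7748 and 7757 FPKM in WT cells, with 3 of 8 lower and 0 higher. Primitive endoderm markers summed to 3.23 and 3.13 FPKM in Pml KO cells, against 7.215 and 7.683 FPKM in WT cells, with 2 of 3 tested lower. Primitive streak markers summed to 19.09 and 19.74 FPKM, against 3.39 and 3.14 FPKM in WT cells, and both tested were higher. No ES cell marker of the 8 was listed at 0. In the arsenite table ES cell markers summed to 2768 and 2662 RPKM in arsenite-treated cells, against 4931 and 4840 RPKM in untreated cells, and trophectoderm markers to 161 and 165 RPKM, against 94.6 and 96.0 RPKM in untreated cells. Fibroblast or feeder markers summed to 159 and 162 RPKM in arsenite-treated cells, against 68.5 and 68.1 RPKM in untreated cells, and primitive endoderm markers to 14.3 and 15.5 RPKM, against 8.11 and 7.86 RPKM in untreated cells. Under arsenite 7 of 8 ES cell markers were called lower and 1 higher. Of 6 trophectoderm markers tested 5 were higher and 1 lower. Of 4 fibroblast or feeder markers tested 3 were higher and 1 lower, and of 4 primitive endoderm markers 3 were higher and 0 lower. Some of these markers passed the filter on low values only through the group where they were high. That part of the counts was fixed by the filter. In each Pml WT library 3 of 8 trophectoderm and 4 of 8 fibroblast or feeder markers read below 1. In each Pml KO library 1 of each list did. Of 6 primitive endoderm markers 5 read below 1 in each Pml KO library. Under arsenite 2 of them did, against 4 and 5 in untreated cells. The part of these markers in the subunit results was not tested.

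The Pml and arsenite tables share no library, and 78 members were tested in both. Lower calls coincided for 12 members, which is 28.6% of the 42 lower in arsenite-treated cells and 52.2% of the 23 lower in Pml KO cells. Of all 78 members 53.8% were lower in arsenite-treated cells, so the members lower in Pml KO cells were not lower there more often than members in general. The 12 include Ndufa13, Ndufb2, Ndufb3, Ndufb8, Ndufc2, Uqcrb, Uqcrq, Uqcr10, Cox5b, Atp5g1 and Atp5sl. Of these 12, 5 kept both calls in every alternative: Ndufb8, Uqcrq, Uqcr10, Cox5b and Atp5g1. Atp5l was called higher in both, and so was Cox4i2, which passed the filter of the arsenite table only through the arsenite-treated libraries. Ndufb9, Ndufs8 and Uqcrc1 were called higher in arsenite-treated and lower in Pml KO cells, and Ndufa1 and Ndufb6 the reverse. Sdhc was at -0.01 in arsenite-treated cells and at -0.45 in Pml KO cells, and Atp5k was at -1.65 in arsenite-treated cells and at -0.18 in Pml KO cells, where it did not pass.

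In the libraries labelled Trim33 KO with activin A 2 members were higher and none lower than in the libraries labelled WT with activin A, among 79 tested. An unadjusted p under 0.05 (limma) was reached by 8 of the 79, against 3096 of all 11914 genes. Over all 11914 genes tested 9.43% were called, 6.61% higher and 2.82% lower. Groups that did not overlap stood higher for 15 members and lower for 11, against 32.3% and 28.4% of all genes. Both called members belong to complex I. Ndufb11 (chrX:20615326-20617619, GRCm38, minus strand), a membrane-arm accessory subunit, read 80.4 and 107 in the libraries labelled Trim33 KO with activin A, against 49.3 and 54.2 in those labelled WT, in units that behave as RPKM. Its log2 fold change was 0.83 (SE 0.178, adjusted p = 0.0244). Ndufa9 (chr6:126821721-126849136, minus strand), an accessory subunit at the joint of the arms, read 111 and 127 in the libraries labelled Trim33 KO, against 70.8 and 77.0 in those labelled WT, which is 0.68 on the log2 scale (SE 0.134, adjusted p = 0.0183).

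Neither call held in every alternative. Leaving out 1 activin A library leaves a group of 1, which by itself weakens the test for all genes. The lost calls therefore do not show that a call rests on 1 library. The adjusted p for Ndufa9 lay between 0.0671 and 0.123 when any 1 of the 4 activin A libraries was left out, and for Ndufb11 it was 0.132 without Trim33 KO activin A replicate 2, 0.136 and 0.116 without WT activin A replicate 1 or 2, and 0.0594 with no filter on low values. Ndufb11 shares 117 exonic bases with Rbm10 on the opposite strand.

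With SB431542 the same 2 genes had the opposite sign by label. Over all genes 9.56% were called, 3.01% higher and 6.55% lower, and among the 79 members 1 was higher and 2 lower. The libraries labelled Trim33 KO lay above those labelled WT for 8 members and below them for 6, against 22.5% and 26.8% of all genes. Ndufb11 read 55.1 and 52.3 in the libraries labelled Trim33 KO with SB431542, against 81.0 and 110 in those labelled WT, which is -0.80 on the log2 scale (SE 0.178, adjusted p = 0.0269). Ndufa9 read 85.6 and 70.2 in the libraries labelled Trim33 KO, against 121 and 114 in those labelled WT, which is -0.59 on the log2 scale (SE 0.134, adjusted p = 0.0283). The library labels and Trim33 itself disagree in these 4 libraries, so the genotype behind each sign cannot be told from them.

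Ndufs1 (chr1:63143596-63176833, minus strand), the largest core subunit of complex I, moved the other way. It read 54.5 and 57.5 in the libraries labelled Trim33 KO with SB431542, against 42.6 and 36.3 in those labelled WT, which is 0.50 on the log2 scale (SE 0.122, adjusted p = 0.0378). With activin A it read 41.8 and 38.1 in the libraries labelled Trim33 KO, against 52.8 and 54.2 in those labelled WT, and did not pass (adjusted p = 0.0663). The call with SB431542 was lost without any 1 of the 8 libraries, at adjusted p between 0.0602 and 0.178. For Ndufb11 and Ndufa9 it was lost without WT SB431542 replicate 2 (0.121 and 0.0806) and without KO SB431542 replicate 2 (0.0909 and 0.098); without replicate 1 of those groups Ndufb11 lost it for KO (0.0611) and Ndufa9 for WT (0.135), and Ndufa9 also lost it without WT activin A replicate 1 or 2 (0.0545 and 0.0543).

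The difference of the genotype-label effects, activin A minus SB431542, was tested directly. It passed for 8 of 79 members, 6 higher and 2 lower, against 26.3% of all genes, with 16.1% higher and 10.1% lower. Ndufb11, Ndufa9 and Ndufs1 held this call in all 14 alternatives, at 1.63, 1.27 and -0.91 on the log2 scale. Trim33 itself was at -5.23 and Eif2s3y at -10.49 in this contrast. By Trim33 level rather than by label, Ndufb11 and Ndufa9 were higher in the low group under both treatments, so whether the contrast shows an effect that differs by treatment, or 2 like effects with the labels exchanged, cannot be told apart. Cell type markers were called in it too: of 8 ES cell markers tested 2 were higher and 1 lower (Zfp42 at 2.36, Nanog at 2.25 and Klf4 at -1.23), of 6 fibroblast or feeder markers 3 were higher (Thy1 at 1.55, Col1a1 at 3.49 and Col1a2 at 2.97), of 7 trophectoderm markers 1 was higher (Gata3 at 1.84), of 2 primitive streak markers 1 was lower and of 2 primitive endoderm markers none was called. The summed ES cell markers ran from 2729 to 3942 over the 8 libraries. The part of these markers in the subunit values was not tested. Complex II had no member called in any contrast of this table: over its 8 libraries Sdha lay between 87.9 and 114, Sdhb between 69.5 and 84.9, Sdhc between 71.2 and 97.9, and Sdhd between 96.5 and 142.

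**Figure D5:**
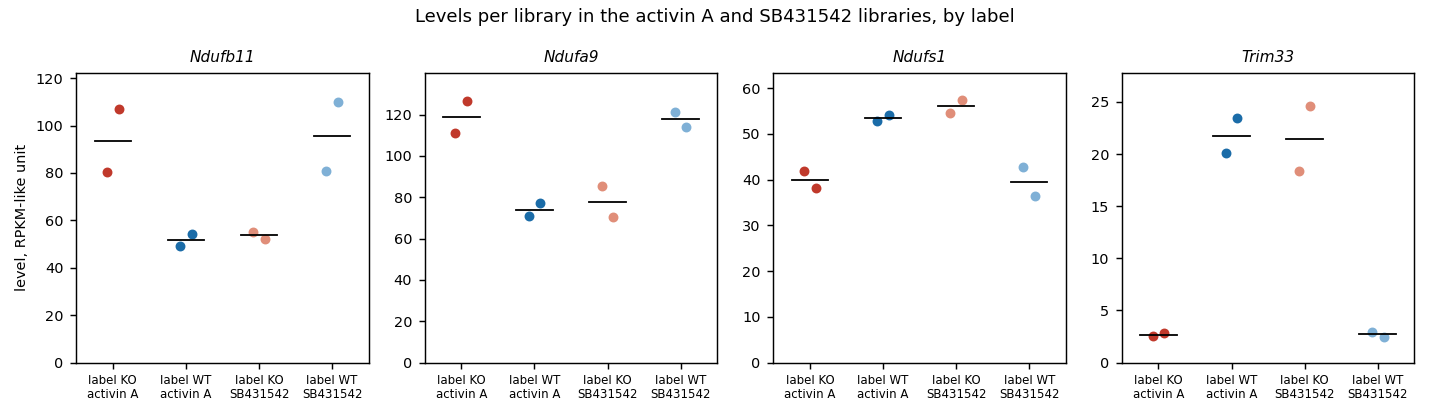
Level per library (points) and group mean (line), in units that behave as RPKM, for Ndufb11, Ndufa9, Ndufs1 and Trim33 in the 4 labelled groups, KO left of WT within each treatment. Ndufb11 and Ndufa9 are higher in the groups with low Trim33 (2.44 to 2.94) and Ndufs1 is lower in them.

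Activin A against SB431542, as the mean over both genotype labels, called none of the 79 members with limma. None had an unadjusted p under 0.05, against 361 of all 11914 genes. Over all genes 0.109% were called, all 13 of them higher. The 4 activin A libraries lay wholly above or wholly below the 4 SB431542 libraries for none of the members, against 0.823% above and 0.554% below over all genes. The median member was at -0.07 on the log2 scale, against -0.01 for all genes, and 72 of the 79 values (91.1%) were negative, against 52.8% of all genes. This median was -0.16 without KO SB431542 replicate 2 and 0.01 without KO SB431542 replicate 1. The replicates of this table lay far apart: complex I summed to 2793 and 3556 in the libraries labelled Trim33 KO with activin A and to 2952 and 3206 in those labelled WT with activin A, and to 3635 and 2851 in those labelled Trim33 KO with SB431542 and 2991 and 3719 in those labelled WT with SB431542.

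Genes that build or feed the complexes were listed separately. The shares of all genes called lower were 18.9% in Pml KO cells and 27% in arsenite-treated cells. Of 47 assembly factors tested in Pml KO cells 10 fell (21.3%) and none rose, with Ecsit at 32.2 and 33.4 FPKM in Pml KO cells, against 43.2 and 43.6 FPKM in WT cells; of 45 tested in arsenite-treated cells 19 fell (42.2%) and 5 rose. Uqcc2, an assembly factor of complex III, fell to 51.3 and 56.8 RPKM in arsenite-treated cells, against 95.1 and 90.9 RPKM in untreated cells, and Timmdc1, an assembly factor of complex I, rose to 21.94 and 21.03 RPKM, against 13.9 and 13.7 RPKM in untreated cells. Of 77 mitochondrial ribosomal proteins 24 fell (31.2%) and 2 rose in Pml KO cells, and 37 fell (48.1%) and 12 rose in arsenite-treated cells, with Mrps24 lower by 0.52 on the log2 scale in Pml KO cells and by 0.48 in arsenite-treated cells. Of the 12 genes for mobile carriers and ubiquinone synthesis 1 fell in Pml KO cells (8.33%) and 4 fell (33.3%) and 1 rose in arsenite-treated cells. The mitochondrially encoded subunits were not analysed here.

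Of the 14 citric acid cycle enzymes tested under arsenite 7 rose (50%, against 40.7% of all genes) and 2 fell (14.3%, against 27%), with a median of 0.15 on the log2 scale, against 0.08 for all genes. Ogdh, of the oxoglutarate dehydrogenase complex, rose to 34.9 and 35.9 RPKM in arsenite-treated cells, against 24.4 and 23.0 RPKM in untreated cells, and Cs, citrate synthase, rose to 117 and 119 RPKM, against 96.0 and 94.6 RPKM in untreated cells. Suclg2, a succinyl-CoA ligase subunit, fell to 12.8 and 11.8 RPKM in arsenite-treated cells, against 19.6 and 19.8 RPKM in untreated cells. In Pml KO cells 4 of the 14 fell (28.6%) and none rose, with Idh2 at 47.4 and 46.3 FPKM in Pml KO cells, against 65.2 and 65.1 FPKM in WT cells.

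Of the 14 regulators of mitochondrial biogenesis tested, 5 fell (35.7%) and 1 rose (7.14%) in each of these 2 comparisons. Of all genes 18.9% fell and 16.6% rose in Pml KO cells, and 27% fell and 40.7% rose in arsenite-treated cells. In arsenite-treated cells Esrrb, an orphan nuclear receptor of the ES cell network, fell by 0.60 on the log2 scale, Gabpa by 0.36, Nrf1 by 0.28, Tfam, which packages mitochondrial DNA, by 0.17 and Polrmt, the mitochondrial RNA polymerase, by 0.15, and Tfb1m rose by 0.28. In Pml KO cells Ppargc1b, a coactivator of mitochondrial genes, fell to 0.598 and 0.487 FPKM, against 1.73 and 1.49 FPKM in WT cells. It is 1 of the 5 counted there, and it passed the filter on low values only through the WT libraries. Myc, Esrrb, Polrmt and Pprc1 fell in Pml KO cells by 0.25, 0.18, 0.20 and 0.18, while Hif1a rose by 0.18. Yy1 passed in neither comparison. In the Trim33 table none of the 13 regulators tested passed under activin A, under SB431542 or between the treatments. For the difference of the genotype-label effects 3 were called lower (23.1%, against 10.1% of all genes).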

How the data were processed

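Total RNA (TIANGEN kit) was made into TruSeq RNA libraries, per the labels' protocols. Build mm10, DESeq2, featureCounts 2.0.1, SAMtools 1.9, Bowtie2 2.3.3 and FastQC 0.11.5 are named in the submitters' processing notes, with no role for each. The authors deposited the Pml libraries as FPKM, fragments scaled for length and library size, and the arsenite libraries as RPKM, reads scaled in the same way, per the file headers. The Trim33 table, as deposited by the authors, names no unit and its values were taken as RPKM: as in the arsenite table, values of single-exon genes fell on whole reads within 0.05 reads for 91.1% to 95% of cases. Library depths recovered from these steps ran between 46670000 and 48500000 reads for arsenite with its controls and between 31170000 and 39470000 reads in the Trim33 table; the depth of the Pml table is unknown. The untreated columns carry another letter than the sample titles and were matched as the untreated group without replicate numbers.

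Within a table, genes that reached 1 in 2 or more libraries were tested on log2(value + 1) with limma 3.58.1 in R 4.3.3 (moderated linear model with an intensity trend, two-sided), each table apart, with p-values adjusted over every tested gene (Benjamini-Hochberg) and a call at an adjusted p under 0.05. Pml and arsenite were fitted as 2 groups each, and the Trim33 libraries as 4 group means with 1 shared spread. The pseudocount understates changes of low genes. The procedure was tested on simulated data. Lengths and gene coordinates are from GENCODE M21 (GRCm38) and promoter windows from RefSeq (GRCm38.p6). Of the 83 members 32 share a 50-base word with a pseudogene, 28 share exonic bases with another gene, 25 of them on the opposite strand, and whether counting used strand is unknown. 27 date-like names per table were left out. Some results for single members are not reported here.

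The members, role lists and marker lists were chosen with earlier results of these data known. Named in the text are, per comparison and complex, up to 2 called members with the largest rise and 2 with the largest fall, all Sdh genes, the isoform sets, the regulators, up to 4 called genes of each other list and, chosen after their values were seen, further called members. Alternatives were a pseudocount of 0.1, no filter on low values, TMM-type scaling, quantile scaling, removal of a lowess trend on transcript length, a replicate block and leaving out each library; a group then left with 1 library was assumed to vary like the others.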

Additional observations from a re-analysis of the deposited data

Results flagged for a closer look

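For 8 members the genotype-label effect with activin A differed from that with SB431542, by a test of the difference in 1 limma model over the 8 libraries, while the labels and the level of Trim33 disagree in the SB431542 libraries. Trim33 itself was at -5.23 in this contrast, so a difference between treatments and 2 like effects with the SB431542 labels exchanged cannot be told apart. In units of log2, activin A minus SB431542, the difference was 1.63 for Ndufb11 (adjusted p = 0.00238), 1.27 for Ndufa9 (adjusted p = 0.00207) and -0.91 for Ndufs1 (adjusted p = 0.00586), all in complex I.

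The other 5 rest on fewer settings. The difference was 1.24 for Ndufb7 (adjusted p = 0.0243), 0.92 for Uqcr10 (adjusted p = 0.0296), 0.9 for Cox4i1 (adjusted p = 0.0425), 0.86 for Atp5g1 (adjusted p = 0.0413) and -0.56 for Atp5a1 (adjusted p = 0.0479). Ndufb7 and Uqcr10 held the call in 8 of 14 alternatives, Cox4i1 in 5, and Atp5g1 and Atp5a1 in 4. With activin A, Ndufb7 read 146 and 208 in the libraries labelled Trim33 KO, against 116 and 125 in those labelled WT. With SB431542 it read 138 and 101 in the libraries labelled Trim33 KO, against 160 and 234 in those labelled WT.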

How the results depend on the processing

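Counts below are members called. For Pml KO against WT, no filter on low values gave 0 higher and 13 lower (0% and 15.9%, against 9.12% and 7.43% of all genes). TMM-type scaling gave 15 lower (19%, against 15.1%), quantile scaling 14 lower (17.7%, against 18.6%) and removal of the length trend 15 lower (19%, against 16.4%). Leaving out 1 library gave 2 to 5 higher and 12 to 25 lower. For arsenite, TMM-type scaling gave 7 higher, and leaving out 1 library 8 to 11 higher. The 12 lower were without Pml KO replicate 2, and the cause was not tested.

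For the Trim33 labels with activin A, no filter gave 1 higher (1.23%, against 3.33% of all genes) and quantile scaling 4 higher (5.06%, against 5.62%). Removal of the length trend gave 6 higher and 6 lower (7.59% each, against 8.83% and 6.74% of all genes). With SB431542, no filter gave 0 higher and 0 lower, against 1.21% and 3.33% of all genes. Quantile scaling gave 0 higher and 4 lower (0% and 5.06%, against 3.9% and 5.46%), and removal of the length trend 5 lower (6.33%, against 8.41%). For the difference, no filter gave 2 higher and 1 lower (2.47% and 1.23%, against 10.9% and 5.48% of all genes). TMM-type scaling gave 1 lower (1.27%, against 11.4%) and removal of the length trend 14 lower (17.7%, against 16.4%). Leaving out 1 library gave 0 to 2 higher with activin A, 0 higher and 0 to 2 lower with SB431542, and 2 to 9 higher and 1 to 3 lower for the difference. Activin A over SB431542 stayed at 0 members in every alternative run.

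Under quantile scaling 4 members that were slightly lower in arsenite-treated cells turned: Cox4i1 to 0.20, Atp5a1 to 0.084, Cox6a1 to 0.13 and Atp5g3 to 0.095 on the log2 scale. Ndufa12 was at -0.30 without arsenite replicate 1 and 0.61 without arsenite replicate 2, and Cox6b2 at 0.19 and -0.35 when either untreated library was left out.

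Same-numbered libraries deviated together in some pairs of groups only: the correlation of their deviations was 0.023 in the Pml table, 0.191 to 0.602 in 4 of the 6 pairs of groups in the Trim33 table and -0.14 and -0.137 in the other 2. The labels give no shared batch, so the numbers were not taken to pair the libraries. With the replicate number as a block, 5 members were higher and 26 lower in Pml KO cells (6.33% and 32.9%, against 17.3% and 19.9% of all genes). The counts were 2 and 0 with activin A (2.53% and 0%, against 8.82% and 4.47%), and 1 and 2 with SB431542 (1.27% and 2.53%, against 4.45% and 8.62%). They were 0 and 0 between the treatments (0.193% and 0% of all genes), and 4 and 3 for the difference (5.06% and 3.8%, against 18.1% and 12.6%). No paired analysis was possible for arsenite because the untreated columns carry no number that matches a title. With 2 libraries a group, small changes may be missed.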

Other observations

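Ndufa4l2, a paralog of Ndufa4 known as a hypoxia-induced gene and left out of the members by their rule, changed far more than any of them. It read 0.621 and 0.974 RPKM in arsenite-treated cells, against 14.2 and 17.3 RPKM in untreated cells, and fell by 3.22 on the log2(value + 1) scale (limma, SE 0.128, adjusted p = 1.17e-06), the lowest value of all 12136 genes tested. In that comparison Ndufa4l2 passed the filter on low values only through the untreated libraries. In Pml KO cells it read 2.87 and 2.21 FPKM, against 11.7 and 10.8 FPKM in WT cells, and fell by 1.80 (SE 0.11, adjusted p = 8.72e-06). In the 8 libraries of the Trim33 table it lay between 0.433 and 0.972.

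Ndufa12, an accessory subunit of complex I, had the widest gap between the arsenite-treated libraries among the members named here, at 60.7 and 31.9 RPKM, against 38.2 and 40.7 RPKM in untreated cells. Its direction in arsenite-treated cells therefore depends on the library.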
